A study of Mus musculus with 8 samples.

Results

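The genes described here encode 7 ligands through which myeloid cells license or restrain T cells, together with CD40, the receptor through which T helper cells license myeloid cells in turn. They are *Cd274* (PD-L1), *Pdcd1lg2* (PD-L2), *Cd80*, *Cd86*, *Icosl*, *Cd40*, *Tnfsf4* (OX40L) and *Tnfsf9* (4-1BBL). They were chosen by name, and all 8 were found among the 24787 genes listed over the tumors. Their unique molecular identifier (UMI) counts were read in 4 cell classes, macrophage-like, monocyte-like, dendritic cell (DC)-like and MC38-like tumor cells, across 3 treatments.

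Tumors came from the MC38 line, a mouse colon carcinoma, grown in female C57BL/6J mice aged 8 weeks per the methods, and were taken 24 h after injection of saline (3 tumors), free R848 (3 tumors) or medium R848-BPDs (2 tumors). R848 (resiquimod) is an agonist of Toll-like receptors 7 and 8, and a BPD is a bottlebrush prodrug that releases it through a linker, here the one with the medium release rate. The sequenced cells of each mouse were CD45+ and CD45- fractions mixed 9:1, so the share of tumor cells among them was set by loading. All tumors were grown from this 1 transplanted line, and the labels give neither the dose nor the sequencing batch. P-values below measure the spread between these tumors.

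T cells need a second signal besides antigen, and CD80 and CD86 provide it through CD28, while the same ligands restrain T cells through CTLA-4. PD-L1 and PD-L2 bind PD-1 and dampen T cells that have already been activated, and PD-L1 is well known as a gene induced by interferons. ICOSL, OX40L and 4-1BBL bind ICOS, OX40 and 4-1BB on activated T cells and prolong their survival and function. CD40, engaged by CD40L, drives NF-κB signaling in antigen-presenting cells and raises their costimulatory ligands, and mature DCs are the cells best known for carrying the whole set.

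*Cd274* lies at chr19:29367455-29388095 (plus strand, GRCm38) and *Pdcd1lg2* at chr19:29410919-29471161, 22823 bases downstream on the same strand. *Cd80* (chr16:38455561-38496335, plus strand) and *Cd86* (chr16:36603869-36666081, minus strand) lie on 1 chromosome. *Icosl* lies at chr10:78069302-78083913, *Cd40* at chr2:165055627-165072948, *Tnfsf4* at chr1:161395409-161418410 and *Tnfsf9* at chr17:57105325-57107757, all on the plus strand. These positions are those of the GENCODE annotation of that build.

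Promoters are shown for *Cd274*, *Pdcd1lg2*, *Cd80* and *Icosl*, the 4 of the 8 genes with an entry in the RefSeq promoter table used here, so that motif letters stand beside the values. Those of *Cd86*, *Cd40*, *Tnfsf4* and *Tnfsf9* are not shown. Each is 300 bases of RefSeq sequence (GRCm38.p6, plus strand), from 250 bases before the start that RefSeq annotates to 50 after it, and the capitals mark matches to the motifs searched. That start differs from the GENCODE gene start above for 3 of the 4 genes, all but *Pdcd1lg2*, and the whole *Cd80* window lies inside the GENCODE gene.
Cd274, chr19:29367188-29367487: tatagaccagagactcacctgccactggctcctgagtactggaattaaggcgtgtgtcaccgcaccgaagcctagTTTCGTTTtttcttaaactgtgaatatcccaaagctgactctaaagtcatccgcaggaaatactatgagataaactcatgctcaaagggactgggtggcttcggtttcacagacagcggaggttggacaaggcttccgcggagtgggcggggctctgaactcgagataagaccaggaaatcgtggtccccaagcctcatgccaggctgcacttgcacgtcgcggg
Pdcd1lg2, chr19:29410669-29410968: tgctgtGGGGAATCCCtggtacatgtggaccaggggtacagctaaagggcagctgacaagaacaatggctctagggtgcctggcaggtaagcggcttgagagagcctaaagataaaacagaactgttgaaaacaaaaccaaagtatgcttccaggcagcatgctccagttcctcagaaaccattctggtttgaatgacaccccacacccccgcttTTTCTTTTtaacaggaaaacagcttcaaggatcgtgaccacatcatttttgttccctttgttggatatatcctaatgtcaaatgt
Cd80, chr16:38458683-38458982: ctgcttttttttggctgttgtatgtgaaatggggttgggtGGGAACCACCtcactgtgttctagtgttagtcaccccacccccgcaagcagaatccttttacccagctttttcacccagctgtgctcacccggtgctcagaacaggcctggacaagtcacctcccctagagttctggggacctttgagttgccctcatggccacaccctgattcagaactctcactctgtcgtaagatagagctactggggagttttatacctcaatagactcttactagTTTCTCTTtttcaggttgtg
Icosl, chr10:78069118-78069417: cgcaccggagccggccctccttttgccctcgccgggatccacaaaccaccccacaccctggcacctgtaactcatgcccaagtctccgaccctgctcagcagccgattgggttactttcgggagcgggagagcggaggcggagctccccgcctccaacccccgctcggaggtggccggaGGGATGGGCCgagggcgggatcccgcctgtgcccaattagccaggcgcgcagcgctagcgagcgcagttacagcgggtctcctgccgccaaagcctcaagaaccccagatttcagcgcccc
The motifs were searched on both strands. The letters GGGA and CC with 4 bases between them, a form of the κB site that NF-κB binds, were found in the promoters of *Pdcd1lg2*, *Cd80* and *Icosl* and in 20.7% of 32851 promoters of the same length. AANNGAAA, the core that interferon regulatory factors bind, was found in those of *Cd274*, *Pdcd1lg2* and *Cd80* and in 23.9% of all promoters. Neither the longer interferon-stimulated response element, GAAA and GAAA with 2 bases between them (3.44% of all promoters), nor the STAT site TTCNNNGAA (8.3%) was found in any of the 4 windows. The core is part of the longer element, no matches overlapped in the 4 windows, and a match is a description of letters only.

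The libraries held 5867590 to 12422614 UMIs each, and 9886 of 10791 barcodes passed the limits on cell quality with medians of 3247 to 6928 UMIs per cell. The first clustering, which set the MC38-like cells apart, did not leave out the 8 genes. The other classes were clustered without them, and all classes were named from markers. They held 398 to 907 macrophage-like cells per tumor, 11 to 269 monocyte-like, 26 to 162 DC-like and 103 to 470 MC38-like cells. The medium R848-BPD tumors held only 21 and 11 monocyte-like cells (98300 and 44425 UMIs). All 11 macrophage markers were detected in macrophage-like cells and all 9 monocyte markers in monocyte-like cells. In MC38-like cells 4 or 5 of 6 MC38 markers were detected, and the keratin *Krt18* was at 0 in all but the medium R848-BPD tumors (0.183 CPM). There the MC38 markers summed to 2013 to 3345 CPM and the 8 fibroblast markers to 909 to 3177 CPM. Among kept cells, 11 barcodes occurred in more than 1 library (56 cells), and the 48 cells with a barcode found in 4 or more libraries all belonged to the cluster of poor-quality cells that was removed. Levels below are UMIs of a gene relative to all UMIs of its class in a tumor (CPM), listed in the order of the replicate numbers. Fewer cells with a transcript and less transcript per cell cannot be told apart in these levels.

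Among the 4 classes, DC-like cells held the highest mean level of every one of the 8 genes. MC38-like cells held the lowest mean level of all but *Tnfsf4*, which lay near 0 in all 3 classes other than DC-like. Over the 8 tumors *Cd274* averaged 481 CPM ± 242 (SD, n = 8) in DC-like, 344 ± 157 in monocyte-like, 242 ± 123 in macrophage-like and 39.1 ± 20.1 in MC38-like cells. *Cd86* averaged 513 ± 70.1, 245 ± 103, 152 ± 54.5 and 8.04 ± 4.71 CPM in the same order. Transcripts of PD-L2 and OX40L lay mostly in DC-like cells among these 4 classes. *Pdcd1lg2* averaged 92.0 ± 53.9 CPM there, 11.9 ± 7.01 in monocyte-like, 3.07 ± 0.908 in macrophage-like and 0.723 ± 0.313 in MC38-like cells, and *Tnfsf4* averaged 99.6 ± 30.3 CPM against 0.301 ± 0.591, 0.233 ± 0.208 and 0.657 ± 0.823. *Tnfsf9* was the most even of the genes, with 61.0 ± 21.4, 57.8 ± 60.7, 56.9 ± 42.1 and 26.2 ± 6.72 CPM in that order.

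*Cd80* averaged 105 ± 36 CPM in DC-like, 55.7 ± 30.4 in monocyte-like, 14.4 ± 6.75 in macrophage-like and 0.870 ± 0.523 in MC38-like cells. *Icosl* averaged 26.1 ± 12.9 CPM in DC-like cells, 12.8 ± 9.23 and 12.2 ± 5.97 in monocyte-like and macrophage-like cells and 0.979 ± 0.881 in MC38-like cells. *Cd40* averaged 324 ± 135 CPM in DC-like cells, 101 ± 30.1 in macrophage-like, 99.5 ± 28.4 in monocyte-like and 11.7 ± 5.74 in MC38-like cells. Differences within a tumor were tested with a two-sided exact sign-flip permutation test on log2 CPM (prior count 2), adjusted over 48 pairs of classes and genes, of which 34 passed 0.05. DC-like exceeded MC38-like cells for all 8 genes, in 8 of 8 tumors each (adjusted p = 0.0125, exact permutation test). DC-like exceeded macrophage-like cells for 7 of 8 genes, by 4.28 (log2) for *Pdcd1lg2*, 1.85 for *Cd86* and 0.96 for *Cd274*. For *Tnfsf9* macrophage-like and DC-like cells could not be separated (DC-like higher in 4 of 8 tumors, adjusted p = 0.401, exact permutation test).

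Between neighboring classes, monocyte-like exceeded macrophage-like cells in *Pdcd1lg2* (by 1.51) and *Cd86* (by 0.66), each in 8 of 8 tumors. The 6 other genes did not pass, among them *Cd274* (higher in monocyte-like cells in 7 of 8 tumors, adjusted p = 0.0608, exact permutation test). Monocyte-like and DC-like cells did not separate for *Cd80*, *Icosl* and *Tnfsf9*. Their order for *Cd274* passed with an adjusted p of 0.0441 (exact permutation test) and a difference of 0.41 in log2.

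**Figure D1:**
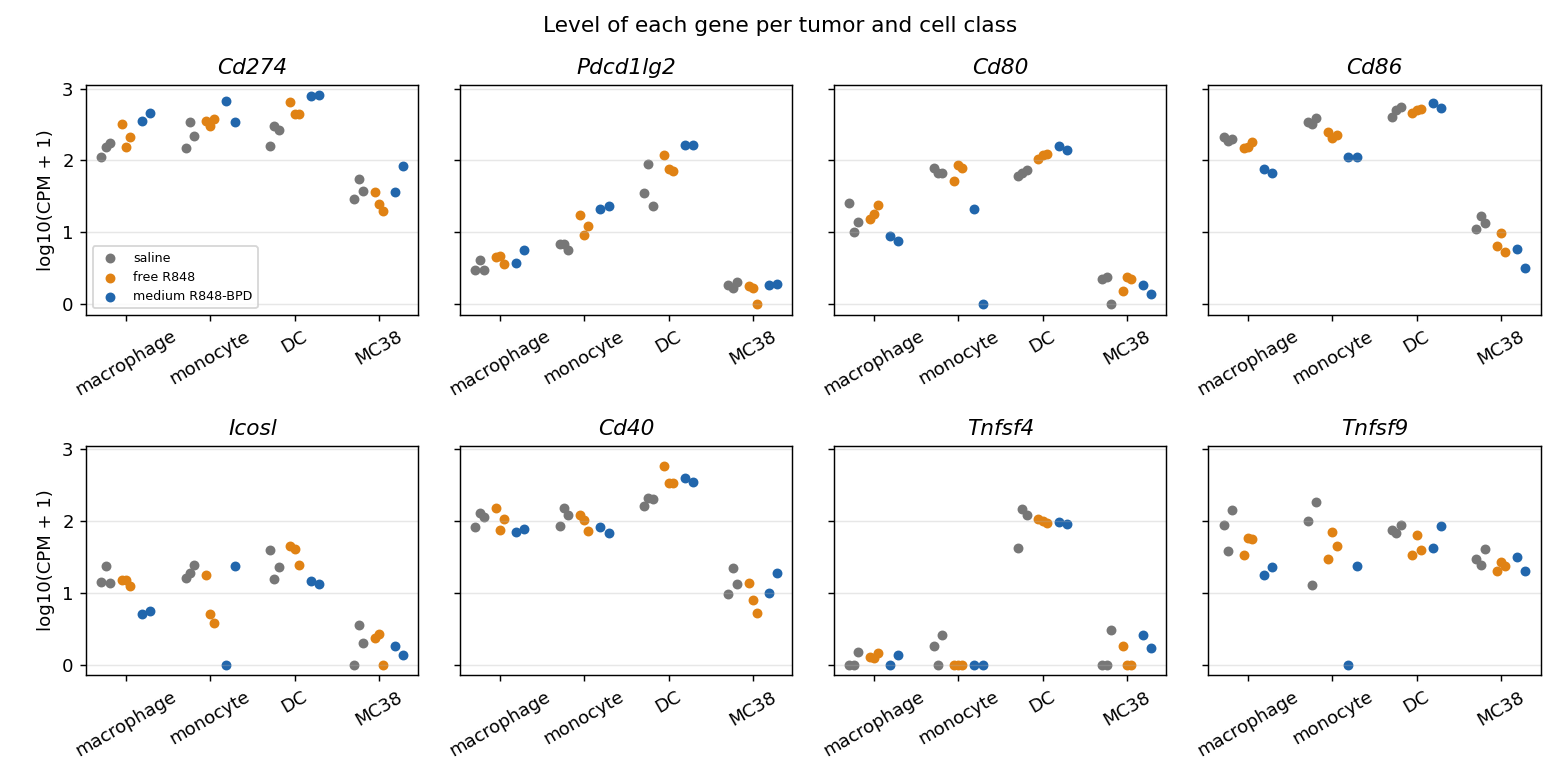
Level of each of the 8 genes in every tumor, as log10(CPM + 1) on the vertical axis, in macrophage-like, monocyte-like, DC-like and MC38-like cells, with points colored by treatment (3 saline, 3 free R848 and 2 medium R848-BPD tumors). *Pdcd1lg2* steps down from DC-like to monocyte-like, macrophage-like and MC38-like cells, *Tnfsf4* lies near 0 outside DC-like cells, and levels of *Tnfsf9* overlap between the 3 myeloid classes.

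The treatments were compared within each class on summed UMI counts with edgeR's quasi-likelihood test, adjusted over all genes tested in the class. In macrophage-like cells, where 7 of the 8 genes had enough counts to be tested (all but *Tnfsf4*), 2 fell in medium R848-BPD against free R848 tumors and none rose, with 1.7% of 10264 genes called in either direction. Their median log2 fold change was −1.12, beside −0.01 over all genes. Against saline, 3 of the 7 fell and 1 rose (8.71% of genes called, median −0.96 beside −0.0048). Between free R848 and saline 0 of 7 were called by edgeR and 0 by DESeq2, 2 had an unadjusted p under 0.05, and the background was 0% of genes called by edgeR (83 genes by DESeq2). In monocyte-like cells 5 genes were tested (not *Pdcd1lg2*, *Icosl* or *Tnfsf4*). None was called between medium R848-BPDs and free R848 by edgeR or DESeq2 (background 2.78%, 2 with an unadjusted p under 0.05), and 1 rose and 1 fell against saline (background 5.27%, median −1.77 beside −0.03). Between free R848 and saline 0 of 5 were called by edgeR and 1 by DESeq2 (background 1.47%, 3 with an unadjusted p under 0.05).

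In DC-like cells all 8 genes were tested. None was called between medium R848-BPDs and free R848 by edgeR or DESeq2 (background 0.991%, 3 with an unadjusted p under 0.05, median 0.30 beside −0.0075). The class shifted toward mature cells with treatment (mature share 54.4 to 88.4% after R848 and 17.3 to 34.6% after saline), and values within mature cells are given further on. The neutrophil markers of the class moved with treatment as well, at 446 to 1002 CPM after free R848, 500.3 and 687 with medium R848-BPDs and 1247 to 2301 after saline, without overlap between saline and either R848 group. They were led by *Il1r2* (726, 311 and 1651 CPM on average), *S100a8* was at 0 in the saline tumors, and their part was not tested. Against saline 4 of 8 rose and none fell after medium R848-BPDs (background 14.5%, median 0.66 beside 0.0093), and 2 of 8 rose after free R848 (background 2.39%, median 0.56 beside 0.0080). In MC38-like cells 4 genes were tested (*Cd274*, *Cd86*, *Cd40* and *Tnfsf9*) and none was called by edgeR in medium R848-BPD against free R848 tumors (background 0.333%), against saline (1.18%) or in free R848 against saline (0%). DESeq2 called 0, 1 and 0 of these 4, and 1 had an unadjusted p under 0.05 in each comparison. Since the tumors after saline serve both comparisons with it, the 2 are not independent of each other.

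**Figure D2:**
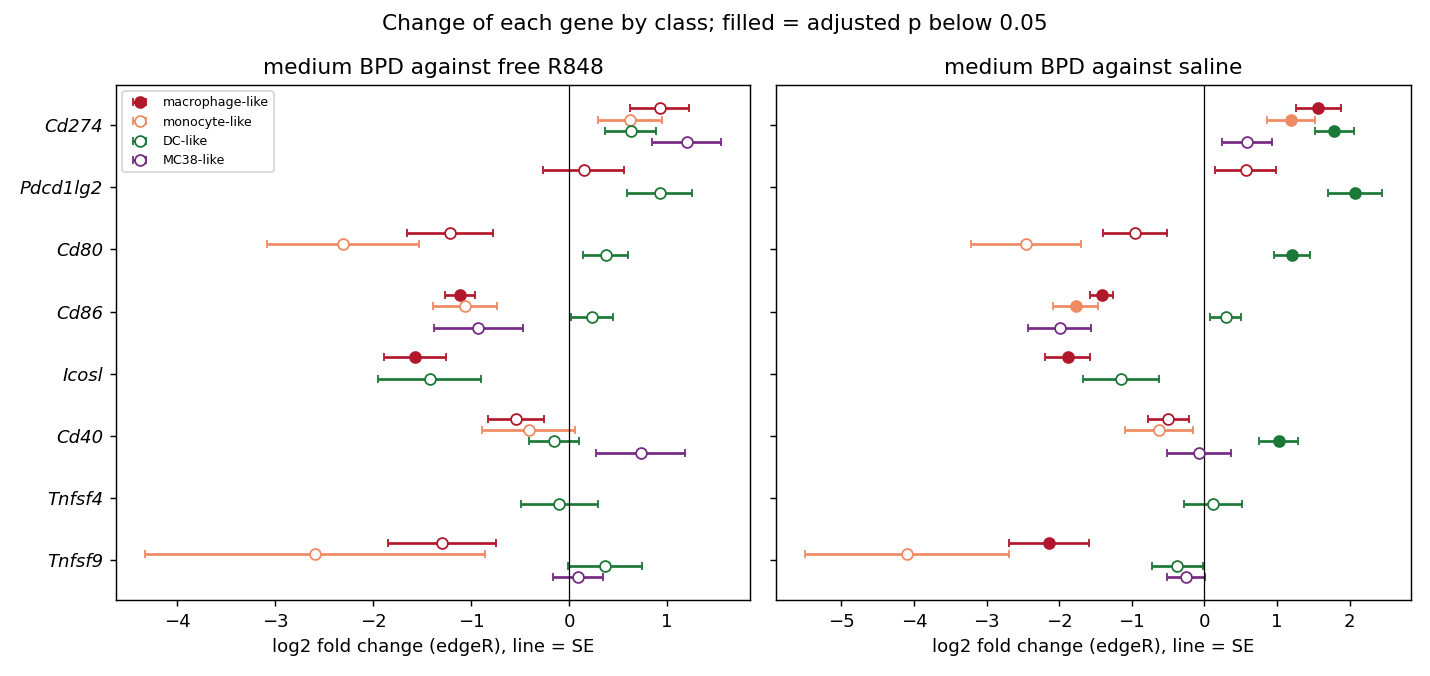
Log2 fold change of each tested gene (horizontal axis, bars ± 1 SE) in medium R848-BPD against free R848 and against saline tumors, by cell class, with filled points for an adjusted p under 0.05 in edgeR's quasi-likelihood test. *Cd86* lies left of 0 in macrophage-like cells in both comparisons and close to 0 in DC-like cells, while *Cd274* lies right of 0 in all 4 classes.

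PD-L1 transcript rose in macrophage-like, monocyte-like and DC-like cells of medium R848-BPD tumors against saline. In macrophage-like cells *Cd274* was at 319.6, 152 and 210.4 CPM in the free R848 tumors, 352 and 463 CPM in the medium R848-BPD tumors and 109, 155 and 174 CPM in the saline tumors. The medium R848-BPD tumors lay above all others, with free R848 replicate 1 close behind, and free R848 overlapped saline. The means were 227 ± 85.0, 408 ± 78.6 and 146 ± 33.1 CPM (SD, n = 3, 2 and 3). Against saline the log2 fold change was 1.57 ± 0.31 (SE, edgeR adjusted p = 0.0167), and against free R848 it was 0.92 ± 0.30 with an edgeR adjusted p of 0.189. The call against saline was lost without medium R848-BPD replicate 2 (1.3, edgeR adjusted p = 0.150) or without saline replicate 1 (1.39, edgeR adjusted p = 0.0578).

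In DC-like cells *Cd274* was at 647, 444 and 444 CPM after free R848, 785 and 805 CPM after medium R848-BPDs and 160.2, 297 and 267 CPM after saline. The 3 groups did not overlap in this class. The rise against saline was 1.79 ± 0.27 with medium R848-BPDs (edgeR adjusted p = 0.000624) and 1.16 ± 0.26 after free R848 (edgeR adjusted p = 0.0325), and the difference between both R848 groups, 0.63 ± 0.26, had an edgeR adjusted p of 0.341. The former held when any 1 of the 8 tumors was left out. The latter was lost without free R848 replicate 1 or 2 or saline replicate 1 or 3 (0.86 to 1.28, edgeR adjusted p = 0.0525 to 0.224).

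*Pdcd1lg2* in DC-like cells was at 117, 74.0 and 70.5 CPM after free R848, 166 and 164 CPM after medium R848-BPDs and 33.9, 89.1 and 22 CPM after saline. Both medium R848-BPD tumors were above the other 6, while free R848 and saline overlapped through saline replicate 2. The rise against saline was 2.07 ± 0.37 (edgeR adjusted p = 0.0019) and held when any 1 tumor was left out. Against free R848 the change was 0.93 ± 0.33, with an edgeR adjusted p of 0.248. In macrophage-like cells the gene stayed between 1.97 and 4.66 CPM, from 4 to 20 UMIs per tumor, and its log2 fold changes of 0.15 to 0.57 were not called. In monocyte-like cells it was at 20.3 and 22.5 CPM after medium R848-BPDs and at 4.70 to 16.6 CPM elsewhere, but those 2 values come from 2 and 1 UMIs.

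*Cd274* in monocyte-like cells was at 348, 296 and 378 CPM after free R848, 682 and 338 CPM after medium R848-BPDs and 149, 347 and 216 CPM after saline. Medium R848-BPD replicate 2 lay within the range of the free R848 tumors and below saline replicate 2. The rise of 1.20 ± 0.33 against saline (edgeR adjusted p = 0.0449) was lost without medium R848-BPD replicate 1 (0.43, edgeR adjusted p = 0.729) and without free R848 replicate 2 or 3 or saline replicate 1 or 3 (edgeR adjusted p = 0.0637 to 0.160). In MC38-like cells it was at 35.1, 23.5 and 18.6 CPM after free R848, 35.2 and 81.4 CPM after medium R848-BPDs and 28.4, 54.1 and 36.4 CPM after saline. The medium R848-BPD tumors overlapped with saline and lay above free R848 by a narrow margin (35.2 against 35.1 CPM at the closest), and the largest change, 1.20 ± 0.35 against free R848, had an edgeR adjusted p of 0.150.

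**Figure D3:**
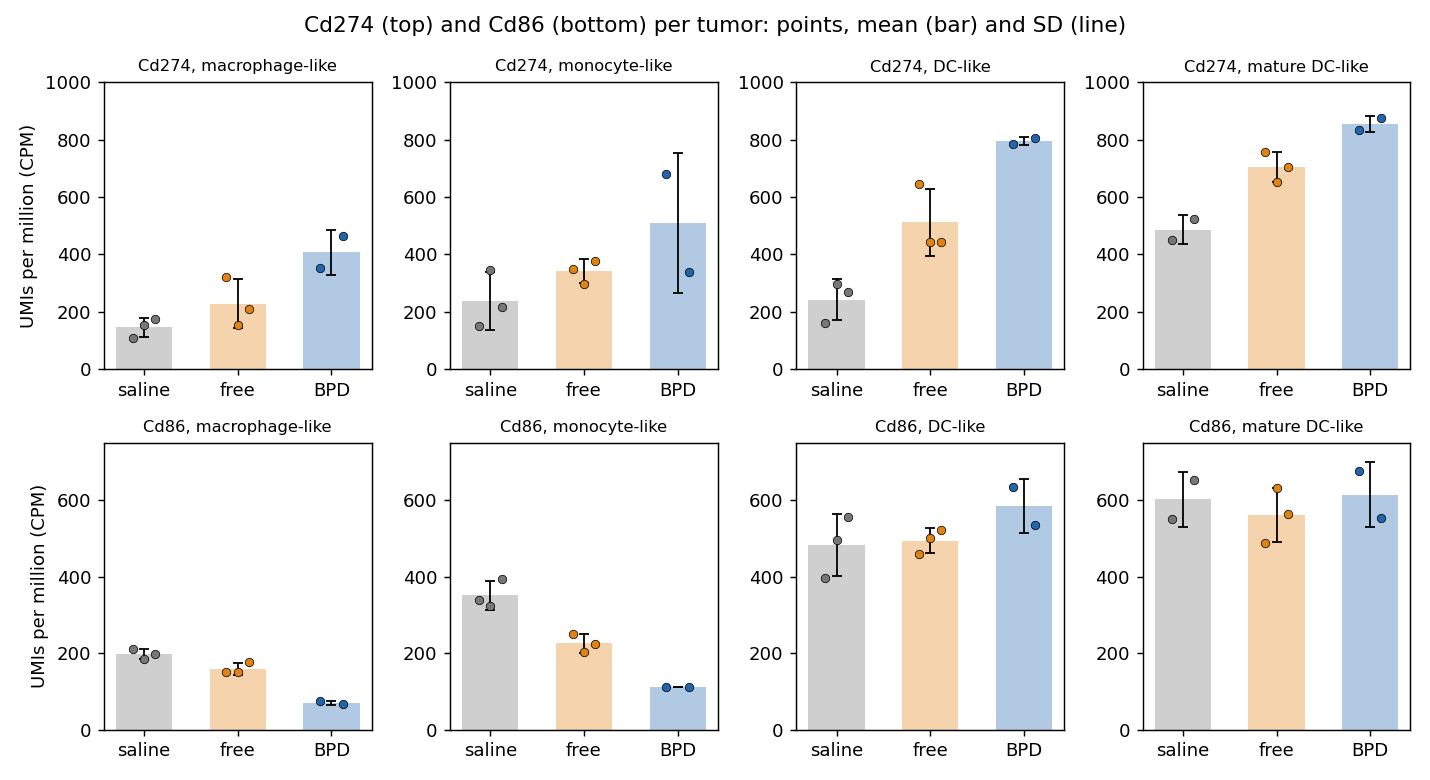
*Cd274* and *Cd86* in CPM (vertical axis, from 0) by treatment in macrophage-like, monocyte-like, DC-like and mature DC-like cells; bars give the mean, error bars 1 SD and points single tumors. *Cd86* of both medium R848-BPD tumors lies below every other tumor in macrophage-like cells (74.2 and 66.1 CPM against 149.9 or more), which is not seen in either DC panel.

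*Cd86* moved the other way in macrophage-like cells. It was at 149.9, 151 and 178 CPM in the free R848 tumors, 74.2 and 66.1 CPM in the medium R848-BPD tumors and 211, 184 and 198 CPM in the saline tumors, from 170 to 1164 UMIs per tumor. The 3 groups did not overlap, and the spread within each was small, with means of 159 ± 15.9, 70.2 ± 5.79 and 198 ± 13.5 CPM (SD, n = 3, 2 and 3). *Cd86* fell by 1.12 ± 0.15 on the log2 scale against free R848 (SE, edgeR adjusted p = 0.0109) and by 1.42 ± 0.15 against saline (edgeR adjusted p = 0.00157). The first call was lost without medium R848-BPD replicate 2 (−1.08, edgeR adjusted p = 0.110), and the second held without any 1 tumor. The difference between free R848 and saline, −0.30 ± 0.13, was not called (edgeR adjusted p = 0.379).

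The lower *Cd86* was found across the macrophage-like clusters. Of 9 clusters, 7 held at least 10 cells in each of the 5 R848 tumors. *Cd86* was below all free R848 tumors in both medium R848-BPD tumors in 7 of these 7, for example at 68.0 and 84.3 against 171 to 203 CPM in the largest cluster (805 cells) and, where they came closest, at 95.9 and 135 against 159 to 192 CPM. *Cd274* was above all free R848 tumors in 4 of them and overlapped in 3. Over the whole class, summed macrophage markers (11 of 11 detected) ranged from 22818 to 26997 CPM after free R848, from 19459 to 21961 with medium R848-BPDs and from 24998 to 27787 after saline. The 7 osteoclast markers ranged from 603 to 721, from 921 to 1255 and from 156 to 576 CPM, with *Oscar* at 0 in both R848 groups, and were led by *Acp5* (1012 CPM on average after medium R848-BPDs). The 13 DC markers summed to between 49.8 and 139.6 CPM in all 8 tumors, lower after medium R848-BPDs (52.4 and 62.6) than after saline (84.9 to 139.6) and overlapping with free R848 (49.8 to 81.9), with *Flt3* averaging at most 1.20 CPM in each group. Markers of both DC subsets also separated the medium R848-BPD tumors from the other 6. The 9 cDC1 markers were lower, at 311 and 362 CPM against 426 to 611 after free R848 and 401 to 735 after saline, with *Ppt1* the largest part and *Xcr1* and *Clec9a* averaging at most 3.67 and 1.69 CPM in each group. The 8 cDC2 markers were higher, at 3085 and 3137 CPM against 2468 to 2647 and 2057 to 2261, led by *Itgam* (1775, 1005 and 914 CPM on average), with *Cd209a* at most 0.475 CPM. The 8 fibroblast markers, at 27.8 and 46.6 CPM against 17.4 to 25.1 and 10.8 to 18.9, did not overlap either. Against saline alone, the T cell markers were lower (6.99 and 14.6 against 20.3 to 41.4 CPM) and the plasmacytoid DC markers higher (850 and 1086 against 664 to 825 CPM). Against free R848 alone, the B cell markers were lower (6.61 and 14.8 against 22.9 to 32.3 CPM). The part of these shifts in the results of this class was not tested beyond the values within clusters.

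*Icosl*, the ligand of ICOS, was low in macrophage-like cells and fell in both comparisons. It was at 14.2, 14.4 and 11.5 CPM after free R848, 4.07 and 4.66 CPM after medium R848-BPDs and 13.2, 23.0 and 12.8 CPM after saline, from 12 to 145 UMIs per tumor. Both tumors given medium R848-BPDs lay below the other 6. *Icosl* fell by 1.58 ± 0.32 against free R848 (edgeR adjusted p = 0.0466), which was lost without any 1 of the 5 tumors compared or saline replicate 1 (edgeR adjusted p = 0.0579 to 0.251), and by 1.89 ± 0.31 against saline (edgeR adjusted p = 0.0103), which was lost without either medium R848-BPD tumor (edgeR adjusted p = 0.0619 and 0.0670). In DC-like cells it was at 43.8, 39.9 and 23.5 CPM after free R848, 13.7 and 12.2 CPM after medium R848-BPDs and 38.6, 14.8 and 22 CPM after saline, from 2 to 33 UMIs per tumor. There its change of −1.42 ± 0.53 against free R848 was not called (edgeR adjusted p = 0.263).

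*Cd80* rose in DC-like cells against saline. It was at 102, 119.6 and 121 CPM after free R848, 160.4 and 137 CPM after medium R848-BPDs and 59.6, 66.8 and 73.3 CPM after saline, without overlap between the 3 groups. The rise was 1.21 ± 0.25 (edgeR adjusted p = 0.00426) and was lost without medium R848-BPD replicate 1 (1.10, edgeR adjusted p = 0.0718) or saline replicate 1 (1.06, edgeR adjusted p = 0.0523). In macrophage-like cells *Cd80* was at 14.2, 17.1 and 22.9 CPM after free R848, 7.96 and 6.61 CPM after medium R848-BPDs and 24.7, 9.02 and 12.8 CPM after saline. Both medium R848-BPD tumors were again the lowest, but the changes of −1.22 ± 0.44 and −0.96 ± 0.44 were not called (edgeR adjusted p = 0.237 and 0.203).

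In DC-like cells *Cd86* was at 460.4, 501 and 523 CPM after free R848, 636 and 535 CPM after medium R848-BPDs and 396, 497 and 557 CPM after saline. The medium R848-BPD tumors were above the free R848 tumors and overlapped with saline. Its changes were 0.23 ± 0.21 against free R848 and 0.29 ± 0.22 against saline (edgeR adjusted p = 0.785 and 0.421). In monocyte-like cells it was at 251, 203 and 224 CPM after free R848, 112 and 113 CPM after medium R848-BPDs and 339, 323 and 393 CPM after saline, so that the 3 groups did not overlap, though the medium R848-BPD values come from 11 and 5 UMIs. *Cd86* fell there by 1.77 ± 0.31 against saline (edgeR adjusted p = 0.00197), which was lost without medium R848-BPD replicate 1 (−1.85, edgeR adjusted p = 0.0775). Against free R848 the change was −1.06 ± 0.33 (edgeR adjusted p = 0.0995).

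Monocyte-like *Cd80* was at 51.4, 85.2 and 78.4 CPM after free R848, 20.3 and 0 CPM after medium R848-BPDs and 78.5, 65.7 and 65.8 CPM after saline. The value of 0 allows up to 67.5 CPM (3 UMIs), so the groups could not be separated at this depth, and the edgeR adjusted p was 0.136 against free R848 and 0.0702 against saline. Monocyte-like *Icosl* was seen in 0 and 1 UMIs after medium R848-BPDs. In this class the 9 monocyte markers summed to 10077 to 12612 CPM after free R848, 5392 and 5470 with medium R848-BPDs and 7118 to 7828 after saline, and the 11 macrophage markers to 4778 to 7106, 7946 and 9807, and 6508 to 8413. Other marker sums were higher after medium R848-BPDs than in all other tumors of this class. The osteoclast markers summed to 743 and 923 CPM against 120 to 218 after free R848 and 66.7 to 131 after saline, led by *Acp5* (794 CPM on average). The neutrophil markers summed to 743 and 990 against 395 to 512 and 421 to 643 CPM, led by *Il1r2* (608 CPM on average), and the endothelial markers to 180 and 305 against 86.2 to 109.6 and 35.9 to 47.0 CPM, led by *Pecam1* (207 CPM on average). The cDC2 markers (3805 and 3849 against 2934 to 3200 and 2235 to 2911 CPM) and the 13 DC markers (180 and 275 against 44.8 to 121.7 and 77.7 to 174 CPM) lay apart as well. The part of these shifts in the values of the class was not tested. With only the 8 genes and the listed pathway genes left out of the clustering, the class held other cells. They included a cluster of 388 cells led by *Saa3*, *Lcn2* and *Cd38*. Its marker score was 0.678 for monocytes and 0.663 for macrophages, so its name was close to a tie. With these cells *Cd86* fell by 1.74 against free R848 (edgeR adjusted p = 2.51e-06), *Cd80* by 2.0 (edgeR adjusted p = 0.000426) and *Cd40* by 0.74 (edgeR adjusted p = 0.0324). Against saline, in that setting, *Cd86* fell by 2.44, *Cd80* by 2.22, *Icosl* by 2.67 and *Cd40* by 1.03 (edgeR adjusted p = 1.81e-08, 7.56e-05, 0.00317 and 0.00279), and *Cd274* rose by 0.80 (edgeR adjusted p = 0.00941).

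In MC38-like cells *Cd86* was at 5.41, 8.63 and 4.34 CPM after free R848, 4.91 and 2.19 CPM after medium R848-BPDs and 10.3, 16.1 and 12.5 CPM after saline. The saline tumors were above the other 5, and the change of −1.99 ± 0.44 in medium R848-BPD against saline tumors had an edgeR adjusted p of 0.0512. The 11 macrophage markers moved with it in this class, with 220 to 712 CPM after free R848, 185 and 236 with medium R848-BPDs and 326 to 1512 after saline, as did the 8 cDC2 markers (49.6 to 76.8, 32.1 and 39.3, and 76.4 to 109.9 CPM), and their part was not tested. *Cd80*, *Icosl* and *Pdcd1lg2* were at or under 2.53 CPM in every tumor.

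*Cd40* rose in DC-like cells after both forms of R848 and, under the main settings, was not called in the 3 other classes. Under the other choice of clustering genes given above it was called in monocyte-like cells. In DC-like cells *Cd40* was at 581, 342 and 338 CPM after free R848, 402 and 355 CPM after medium R848-BPDs and 161, 208 and 205 CPM after saline. Both R848 groups lay above saline and overlapped with each other. The rise was 1.18 ± 0.25 after free R848 (edgeR adjusted p = 0.0291) and 1.02 ± 0.27 with medium R848-BPDs (edgeR adjusted p = 0.0167). The first was lost without free R848 replicate 1 or saline replicate 1 or 3 (edgeR adjusted p = 0.0748 to 0.205), the second without either medium R848-BPD tumor or saline replicate 1 (edgeR adjusted p = 0.0505 to 0.132). In macrophage-like cells *Cd40* was at 153, 74.9 and 107 CPM, 68.9 and 76.5 CPM, and 81.1, 128 and 115 CPM in the 3 groups. Its change of −0.55 ± 0.29 between the R848 groups was not called (edgeR adjusted p = 0.437). In monocyte-like cells it was at 81.4 and 67.5 CPM after medium R848-BPDs, below the 83.6 to 149 CPM after saline and overlapping with free R848 (72.8 to 119.5 CPM), from 8 and 3 UMIs and without a call (−0.41 ± 0.47 against free R848 and −0.62 ± 0.46 against saline, where the other clustering gave −0.74 and −1.03 with a call). In MC38-like cells it ranged from 4.34 to 21.7 CPM, with all groups overlapping.

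*Tnfsf9* was at 33.2, 57.8 and 55.6 CPM in macrophage-like cells after free R848, 16.8 and 21.8 CPM after medium R848-BPDs and 88.9, 36.9 and 144 CPM after saline. The medium R848-BPD tumors were the lowest, and the saline tumors differed among themselves by more than either R848 group did. The gene fell by 2.14 ± 0.55 against saline (edgeR adjusted p = 0.0455), a call lost when any tumor except saline replicate 2 was left out (−2.36 to −1.60, edgeR adjusted p = 0.0582 to 0.199). Against free R848 the change of −1.30 ± 0.55 was not called (edgeR adjusted p = 0.322). In DC-like cells it was at 32.9, 62.6 and 38.2 CPM after free R848, 41.1 and 85.1 CPM after medium R848-BPDs and 73.7, 66.8 and 87.9 CPM after saline, where free R848 and saline did not overlap and medium R848-BPDs overlapped with both (no change called). In monocyte-like cells it ranged from 0 to 22.5 CPM after medium R848-BPDs (1 UMI in all) and from 12 to 185 CPM elsewhere, and in MC38-like cells from 19.0 to 39.5 CPM.

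*Tnfsf4*, among these 4 classes, was found mainly in DC-like cells, and NK-like (70.7 to 137 CPM) and T-like cells (11.5 to 114 CPM) carried it as well. It was at 106, 99.7 and 94.1 CPM in DC-like cells after free R848, 96.0 and 91.1 CPM after medium R848-BPDs and 40.9, 148 and 121 CPM after saline. The R848 groups were close together within the wide range of the saline tumors, and no change was called (0.12 ± 0.40 against saline, edgeR adjusted p = 0.893). In the 4449 macrophage-like cells the gene had 5 UMIs in all, at most 1 in any tumor, and in the 782 monocyte-like cells it had 2. A count of 0 allowed up to 0.475 to 1.01 CPM in the 3 macrophage-like samples where the gene was not seen.

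The DC-like class changed in makeup with treatment. Clustered again without the 8 genes and the listed genes, mature DC-like cells, marked by *Ccr7*, *Fscn1* and *Ccl22*, made up 80.4, 56.0 and 54.4% of DC-like cells after free R848, 87.7 and 88.4% with medium R848-BPDs and 17.3, 34.6 and 26.4% after saline. The mature share was higher in all R848 tumors than in any saline tumor. Of the 345 mature DC-like cells, 63 formed a cluster led by *Saa3*, with *Fscn1*, *Arg1* and *Lcn2* among its leading genes. Its marker score was 0.362 for mature DCs and 0.159 for cDC2, so these cells were less clearly mature. In the 5 tumors with at least 10 cells of both kinds, 6 of the 8 genes were higher in mature than in other DC-like cells in 5 of 5 tumors, by 3.56 ± 0.85 (log2, SD) for *Tnfsf4*, 1.86 ± 0.55 for *Pdcd1lg2*, 1.70 ± 0.54 for *Cd80*, 1.62 ± 0.41 for *Cd274*, 1.55 ± 0.67 for *Cd40* and 0.60 ± 0.35 for *Cd86*. With 5 tumors the exact sign-flip permutation test cannot go below p = 0.0625, which all 6 reached (adjusted p = 0.0833). *Icosl* and *Tnfsf9* were higher in 3 of 5.

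Within mature DC-like cells *Cd274*, *Pdcd1lg2*, *Cd80* and *Cd40*, which rose against saline with medium R848-BPDs over all DC-like cells, were not called. The class held 24 to 107 cells in 7 tumors, and saline replicate 2 (9 cells) was left out, so saline rests on 2 tumors, and the fold changes here and over all DC-like cells were not tested against each other. Of 7 genes tested (not *Icosl*), none was called by edgeR or DESeq2 in medium R848-BPD against free R848 tumors (background 1.65%, 0 with an unadjusted p under 0.05), 1 fell against saline (background 2.92%, 3 with an unadjusted p under 0.05), and none was called between free R848 and saline (background 0.05%, 3 with an unadjusted p under 0.05, 0 by DESeq2). *Cd274* was at 758, 653 and 706 CPM after free R848, 834 and 876 CPM after medium R848-BPDs and 449 and 523 CPM after saline. The groups still did not overlap, but the change against saline was 0.75 ± 0.23 (edgeR adjusted p = 0.0966) where it had been 1.79 in all DC-like cells. *Pdcd1lg2* was at 144, 123 and 123 CPM, 181 and 188 CPM, and 88.5 and 43.6 CPM in the same order, again without overlap (1.26 ± 0.36 against saline, edgeR adjusted p = 0.0806).

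*Cd40* was at 445 and 380.2 CPM in mature DC-like cells after medium R848-BPDs and 436 and 334 CPM after saline, and *Cd80* at 178 and 153 CPM and 149.8 and 131 CPM. Their changes of −0.01 ± 0.27 and 0.15 ± 0.34 were not called (edgeR adjusted p = 0.998 and 0.891), so the calls of these 2 genes over all DC-like cells were lost within mature ones. *Cd86* was not called either (−0.03 ± 0.24 against saline, edgeR adjusted p = 0.984), at 489, 632 and 565 CPM after free R848, 676 and 555 CPM after medium R848-BPDs and 552 and 654 CPM after saline. *Tnfsf4* was at 130.1, 179.9 and 166 CPM after free R848, 108 and 101 CPM after medium R848-BPDs and 184 and 421 CPM after saline. Levels were lowest with medium R848-BPDs and the 2 saline tumors far apart. It fell by 1.48 ± 0.36 against saline (edgeR adjusted p = 0.0352), which was lost without saline replicate 3 (−0.86, edgeR adjusted p = 0.321) or either medium R848-BPD tumor (edgeR adjusted p = 0.103 and 0.124). Markers of NK cells were higher here after medium R848-BPDs (9 of 9 detected, 240.2 and 708 CPM) than after free R848 (5 of 9, 24.5 to 97.7 CPM) or saline (4 of 9, 29.1 and 74.9 CPM), with *Ncr1* and *Klrc2* at 0 in the latter groups. The markers of the class itself were lowest after medium R848-BPDs, without overlap. The 10 mature DC markers summed to 13621 and 17618 CPM against 18215 to 19562 after free R848 and 20697 and 24494 after saline, and the 13 DC markers to 9205 and 11887 against 12195 to 14066 and 15514 and 18581 CPM. Among them *Ccl22* averaged 647, 2106 and 4768 CPM. The osteoclast markers (377 and 408 against 49.4 to 110.5 and 14.5 and 122.6 CPM) and the cDC2 markers (739 and 942 against 498 to 658 and 465 and 504 CPM) were higher without overlap, and the neutrophil markers (439 and 530 CPM) were above free R848 (123 to 162) and within the range of saline (279 and 683). Some other marker sums were above saline and overlapped with free R848. These were the T cell (366 and 391 against 116 and 174 CPM), monocyte (1055 and 1835 against 465 and 947 CPM) and endothelial markers (113 and 167 against 14.5 and 20.4 CPM). The macrophage markers (1828 and 3347 CPM) overlapped with both groups. The part of these markers in the *Tnfsf4* and other values was not tested. Without the 28 cells of a subcluster led by T cell genes, *Tnfsf4* fell by 1.61 (edgeR adjusted p = 0.0270) and *Cd274* rose by 0.89 (edgeR adjusted p = 0.0479).

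**Figure D4:**
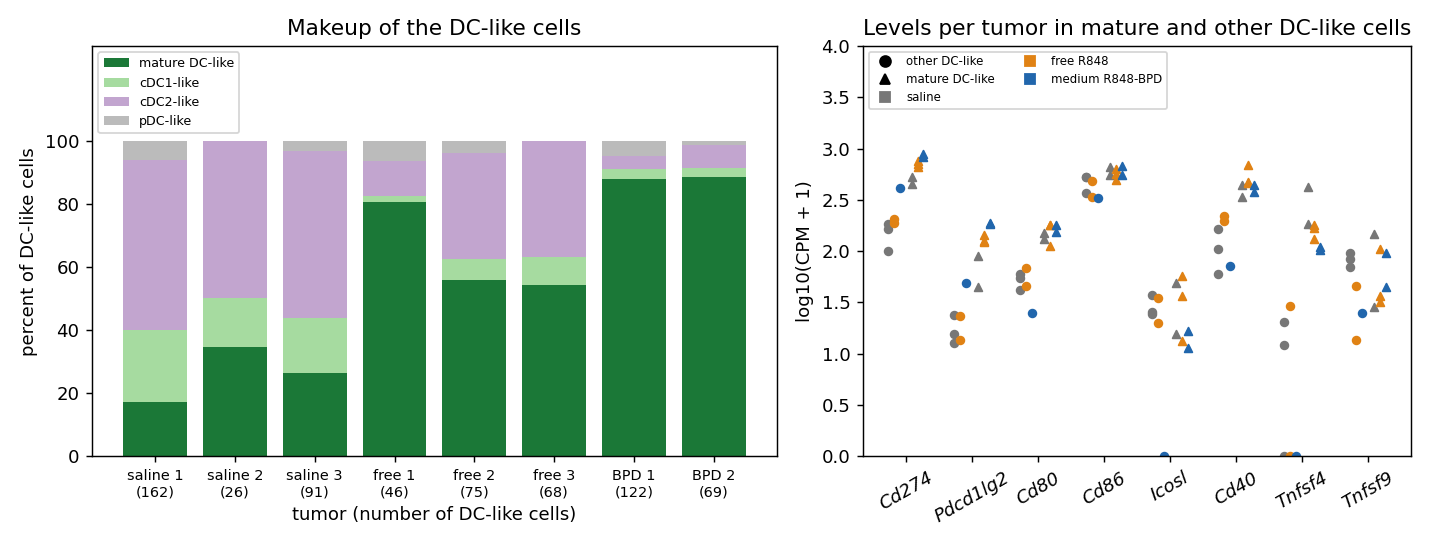
Makeup of DC-like cells per tumor in percent (left) and levels of the 8 genes in log10(CPM + 1) in mature (triangles) and other (circles) DC-like cells, 1 point per tumor with at least 10 such cells, colored by treatment. Mature cells make up 54.4% or more in every R848 tumor and 34.6% or less in every saline tumor, and within each treatment the triangles lie above the circles for *Cd274*, *Pdcd1lg2*, *Cd80*, *Cd40* and *Tnfsf4*.

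Whether the genes responded differently between classes (medium R848-BPDs against free R848) was tested directly in 1 model of both classes, as an interaction of class and treatment that kept each tumor as a block. For *Cd86* the change in DC-like cells was 1.38 ± 0.25 above that in macrophage-like cells (edgeR adjusted p = 0.0092), and it was the only 1 of 8 genes called (background 0.36%). It was likewise the only 1 of 8 in mature DC-like against macrophage-like cells, by 1.20 ± 0.27 (edgeR adjusted p = 0.00203, background 1.37%). The first call was lost without free R848 replicate 2 or 3 or either medium R848-BPD tumor (1.23 to 1.41, edgeR adjusted p = 0.0546 to 0.129), and the second without either medium R848-BPD tumor (1.08 and 1.31, edgeR adjusted p = 0.181 and 0.0615). For *Cd80* (1.63 ± 0.41) and *Tnfsf9* (1.69 ± 0.42) in DC-like cells the term had the same sign and did not pass (edgeR adjusted p = 0.0845 and 0.0771). *Cd274* did not pass (−0.28 ± 0.25, edgeR adjusted p = 0.936). Between monocyte-like or MC38-like and macrophage-like cells 0 of 7 genes were called by edgeR (background 1.17% and 1.01%), with 0 and 2 of them under an unadjusted p of 0.05, and DESeq2 was not run on this term.

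Cells with a transcript were also counted after each cell had been thinned to 1000 UMIs. *Cd86* was found in 14.1, 13.7 and 16.8% of macrophage-like cells after free R848, 7.28 and 5.79% with medium R848-BPDs and 18.3, 16.0 and 22.1% after saline. Both medium R848-BPD tumors lay below free R848 without overlap, by a mean difference of −8.37 percentage points, at the smallest p that 2 against 3 tumors allow (p = 0.2, two-sided exact permutation test). Without thinning the mean was 29.2% ± 7.18 in the medium R848-BPD tumors, 55.3% ± 4.40 in the free R848 tumors and 57.6% ± 7.70 in the saline tumors. In NK-like cells, which should lack CD86, the share was 0 to 1.98% in all tumors (0 to 5.94% without thinning). Median depths were 3247 to 7819.5 UMIs there and 3663 to 6843 in macrophage-like cells, and the macrophage-like shares stood above this NK-like background. In T-like cells the thinned share of *Cd86* was 3.33 to 8.97%, a range that held both medium R848-BPD macrophage-like values (7.28 and 5.79%). *Cd274* was found in 27.3, 14.7 and 18.1% of macrophage-like cells after free R848, 26.9 and 34.5% with medium R848-BPDs and 9.55, 15.4 and 17.5% after saline (6 shallower cells of saline replicate 3 were left out). Medium R848-BPDs overlapped with free R848 (p = 0.4, exact permutation test) and not with saline (p = 0.2, the smallest possible, exact permutation test). In NK-like cells its thinned share was 2.48 to 11.6%, so the lowest macrophage-like value (9.55%, saline replicate 1) was no higher than the highest NK-like one. Unthinned means in macrophage-like cells were 74.9% ± 1.29 with medium R848-BPDs, 53.3% ± 13.9 with free R848 and 42.1% ± 8.54 with saline. In DC-like cells its thinned share was 55.6% ± 3.32 with medium R848-BPDs, 35% ± 7.34 after free R848 and 20.3% ± 2.37 after saline.

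Other genes of these pathways were read from 4 lists. Among 19 other B7 and TNF family ligands, 15 were tested in macrophage-like cells, and in medium R848-BPD against free R848 tumors 3 fell and 1 rose (1.7% of all genes called, median −0.27 beside −0.01 over all genes). *Tnfsf8* (CD30L) fell by 2.69 ± 0.37 on the log2 scale (27.8 to 3.96 CPM on average, edgeR adjusted p = 0.0109), *Cd276* (B7-H3) by 1.71 ± 0.32 (edgeR adjusted p = 0.0345) and *Cd83*, which stabilizes CD86 on the surface of DCs, by 1.35 ± 0.21 (edgeR adjusted p = 0.0173). *Cd200*, whose receptor inhibits myeloid cells, rose by 2.66 ± 0.53 (edgeR adjusted p = 0.0439). Against saline (8.71% of all genes called) the same 4 were called in the same directions and *Tnfsf15* (TL1A) fell by 1.52 ± 0.39 (edgeR adjusted p = 0.0420). Of 7 binding partners (the receptors of the ligands, and CD40L), only *Tnfrsf9* (4-1BB) had enough counts in macrophage-like cells. It rose against saline by 2.27 ± 0.57 (edgeR adjusted p = 0.0416) and had a log2 fold change of 2.22 against free R848 that was not called.

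Of 19 genes of CD40 and NF-κB signaling, all tested in macrophage-like cells, none was called between medium R848-BPDs and free R848, and 3 fell against saline (8.71% of all genes called, 464 down and 430 up, median −0.31 beside −0.0048). These were the NF-κB subunits *Rel* (−0.98 ± 0.20, edgeR adjusted p = 0.0214) and *Nfkb1* (−0.71 ± 0.12, edgeR adjusted p = 0.0105) and the survival gene *Bcl2a1b* (−0.64 ± 0.12, edgeR adjusted p = 0.0151), which belongs to a family of near-identical genes whose reads may be shared. In DC-like cells 6 of 18 rose against saline and none fell (14.5% of all genes called, 464 up and 387 down, median 0.42 beside 0.0093), and the 5 with the largest rise were the CD40 adaptors *Traf2*, *Traf1* and *Traf3* (by 1.28, 1.01 and 0.83), the NF-κB subunit *Nfkb2* (0.99) and the kinase *Ikbkb* (0.97). Of 17 genes that link interferon and JAK-STAT signaling with PD-L1, 1 rose against saline in macrophage-like cells (*Stat2*, 0.84 ± 0.19, edgeR adjusted p = 0.0291), a share below the 8.71% of all genes. In DC-like cells 2 of 15 rose, *Stat3* (1.22 ± 0.27, edgeR adjusted p = 0.00669) and *Irf1* (0.81 ± 0.26, edgeR adjusted p = 0.0444), while *Ifnar1* fell (−0.72 ± 0.22, edgeR adjusted p = 0.0389), beside 14.5% of all genes called, so that these calls are close to the background. Within mature DC-like cells (2.92% of all genes called) none of the 18 CD40 and NF-κB genes and none of the 15 interferon and JAK-STAT genes tested rose against saline, and 1 of the former fell.

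Of the 7 binding partners, 4 were tested in DC-like cells, and 2 rose against saline (14.5% of all genes called) and 1 against free R848 (0.991%). *Pdcd1* (PD-1) rose by 2.74 ± 0.43 against saline (18.7 to 91.3 CPM on average, edgeR adjusted p = 0.000796), and *Tnfrsf9* rose by 2.20 ± 0.30 against saline (edgeR adjusted p = 0.000382) and by 1.38 ± 0.29 against free R848 (edgeR adjusted p = 0.0303). *Cd200* and *Cd70*, the ligand of CD27, rose by 2.45 ± 0.39 and 2.18 ± 0.40 against saline after medium R848-BPDs. After free R848 they rose by 1.62 ± 0.37 and 1.64 ± 0.41 (2.39% of all genes called). Neither was called within mature DC-like cells, whose share of the class was higher after R848 than after saline. Since T and NK cells carry *Pdcd1* and *Tnfrsf9*, their markers belong beside these values. The T cell markers (10 of 10 detected) summed to 73.5 to 406 CPM after free R848, 325 and 365 with medium R848-BPDs and 73.3 to 163 with saline, and the NK cell markers (8, 9 and 8 of 9) to 17.6 to 151, 215 and 617, and 11 to 312 CPM. The osteoclast markers were higher after medium R848-BPDs as well (377 and 489 against 73.1 to 142 and 117 to 156 CPM). Their part was not tested. Within mature DC-like cells none of the 3 binding partners tested was called (0 of 3 against saline and against free R848). *4632428N05Rik* (*Vsir*, VISTA) rose there by 1.88 ± 0.48 against saline (edgeR adjusted p = 0.0413) and *Bcl2a1b* fell by 1.20 ± 0.28 (edgeR adjusted p = 0.0268).

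In monocyte-like cells *Cd83* and *Pvr* (CD155, a ligand of TIGIT and DNAM-1) were the only called genes of the 4 lists, and both fell against saline after either treatment. They were 2 of 8 ligands tested there, with none of 18 CD40 and NF-κB and 15 interferon and JAK-STAT genes called, beside 5.27% of all genes called with medium R848-BPDs and 1.47% after free R848. *Cd83* fell by 2.39 ± 0.32 with medium R848-BPDs and 1.19 ± 0.21 after free R848, and *Pvr* by 1.92 ± 0.40 and 1.27 ± 0.22. In MC38-like cells *Cd83* fell by 2.02 ± 0.41 in medium R848-BPD against saline tumors (edgeR adjusted p = 0.0392), and no other of the 11 ligands, 18 CD40 and NF-κB genes, 17 interferon and JAK-STAT genes and 1 binding partner tested was called there (background 1.18%). Markers of myeloid cells were lower with it in these tumors, the macrophage markers at 185 and 236 against 326 to 1512 CPM after saline, the cDC2 markers at 32.1 and 39.3 against 76.4 to 109.9 CPM and the monocyte markers at 45.7 and 88.0 against 132 to 190 CPM, and their part was not tested.

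Over the 8 tumors, the genes whose log2 CPM in macrophage-like cells followed these genes most closely were sought among 6874 genes whose log2 CPM averaged 4 or more. For *Cd86* they were *Cd83* (Pearson's r = 0.993), *Gpr132* (0.989) and *Lrrfip1* (0.985), and for *Cd274* *Slc43a2* (0.988), *Eva1b* (0.977) and *Dedd* (0.964). For *Tnfsf9* they were *Emp3* (0.972), *Arl5b* (0.971) and *Plaur* (0.967), and for *Cd40* *Hivep1* (0.960), *Entpd1* (0.951) and *D2Wsu81e* (0.908). The 8 points share their treatment groups and the same libraries, and the best of so many genes is high by selection, so these values describe likeness only.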

How the data were processed

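For each of 8 tumors the authors deposited unnormalized UMI counts, 1 table of genes by barcodes (mm10, the GRCm38 build), and the aligner is not given in the sources used here. Libraries held 5867590 to 12422614 UMIs, and a count of 0 has an upper limit of 3 UMIs, for counting error only. The 8 genes and the gene and marker lists were chosen with earlier results of these data known.

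Barcodes were kept between 400 and 10000 genes, below 50000 UMIs and up to a mitochondrial share of 15%. Scrublet (scanpy 1.11.5) marked 67 of them (0.678%) as doublets, which were kept, so that doublets were not removed. Cells were clustered in Seurat 5.3.0 (30 principal components, resolution 0.8), 265 cells of a poor-quality cluster were removed, and nonmalignant cells were clustered again (11 components, resolution 1.3) without 1033 genes, the 8 genes and listed genes included. DC-like cells were clustered once more (10 components, 0.8). The way variable genes were picked and the rule that names a cluster by its leading genes were changed after output had been seen. Clusters were rebuilt here, so classes may differ from the study's.

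Counts were summed per tumor and class (at least 10 cells) and tested with edgeR 4.0.16 (TMM, quasi-likelihood F test, all treatments in 1 fit, Benjamini-Hochberg, 0.05). A standard error is the size of the log2 fold change divided by √F. Scripts were tested on simulated data. Thinning drew 1000 UMIs per cell. Named were the 8 genes, at most the 5 listed genes with the largest change per list among those called, and the 3 most alike in macrophage-like cells.

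Results were recomputed with DESeq2 1.42.0, with RLE normalization, without the low-count filter, on the treatments compared alone, with a replicate block, with equal cell numbers, thinned cells, doublets removed, poor-quality cells kept, other gene sets and resolution for clustering, monocyte-like joined with macrophage-like cells, another prior count and cell minimum, and each tumor left out. Mature DC-like cells only, and those without a subcluster led by T cell genes, were chosen after seeing the data. R 4.3.3, Python 3.11.15, numpy 2.4.6, scipy 1.17.1, pandas 2.3.3 and matplotlib 3.10.9 were used. A table of the authors' own comparisons served only to leave its genes out of the clustering.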

Additional observations from a re-analysis of the deposited data

Results flagged for a closer look

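The response of *Cd86* to medium R848-BPDs against free R848 differed between classes by a test of the difference itself. It was 1.38 ± 0.25 higher (log2, SE) in DC-like than in macrophage-like cells (edgeR adjusted p = 0.0092), where the class values were 0.23 and −1.12. In mature DC-like against macrophage-like cells the difference was 1.20 ± 0.27 (edgeR adjusted p = 0.00203). Both rest on 2 medium R848-BPD tumors, and leaving out either of them ended both calls. Without replicate 1 of them the differences were 1.23 and 1.08. The first call was also lost without some of the free R848 tumors, as given above.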

How the results depend on the processing

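Of 290 values recomputed for single called genes, 289 kept their direction and 217 their side of the threshold, 80 of 119 with a tumor left out and 137 of 171 under the other settings. The reversed value was *Cd40* in DC-like cells against saline, which was −0.0051 in mature DC-like cells only. *Cd86* in macrophage-like cells against free R848 kept its call under 12 of 12 settings besides leaving out a tumor (edgeR adjusted p = 2.93e-07 to 0.0496). *Icosl* in the same comparison lost it with a replicate block (−1.62), equal cell numbers (−1.35), poor-quality cells kept (−1.52), only the 8 and the listed genes left out of the clustering (−1.49) or resolution 0.8 (−1.56), and had too few counts to be tested in thinned cells.

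Counts of the 8 genes called moved as follows, and the cause was not tested. The share of all genes called under each setting, or without each tumor, is not given here. These counts therefore do not show whether the 8 genes moved apart from the other genes. In macrophage-like cells, medium R848-BPDs against free R848 gave 6 in place of 2 without the filter on low counts, and 1 each with the block, equal cell numbers, cells thinned to 1000 UMIs, poor-quality cells kept, only the 8 and the listed genes left out of the clustering, or resolution 0.8. Against saline the count was 2 in place of 4 in thinned cells, and free R848 against saline gave 2 in place of 0 without the filter. In monocyte-like cells the comparison with free R848 gave 3 in place of 0 with only the 8 and the listed genes left out, and 2 with macrophage-like cells joined in. Against saline it gave 1 in place of 2 with DESeq2, with the compared treatments alone or with the block, 4 without the filter, 0 with equal cell numbers or thinned cells and 5 with only the 8 and the listed genes left out. Free R848 against saline gave 1 in place of 0 with DESeq2, RLE, no filter, the compared treatments alone, poor-quality cells kept or only the 8 and the listed genes left out. In DC-like cells medium R848-BPDs against saline gave 1 in place of 4 with equal cell numbers or mature cells only, and free R848 against saline 0 in place of 2 with the block, equal cell numbers or mature cells only, and 1 in thinned cells or with only the 8 and the listed genes left out. In MC38-like cells 1 gene in place of 0 was called against free R848 without the filter, and against saline 1 with DESeq2 or doublets removed and 2 without the filter. In mature DC-like cells against saline it was 0 in place of 1 with the block and 2 without the subcluster led by T cell genes.

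With a tumor left out, these counts ranged from 0 to 2 (against free R848), 1 to 5 (against saline) and 0 to 0 (free R848 against saline) in macrophage-like, 0 to 0, 0 to 3 and 0 to 2 in monocyte-like, 0 to 0, 2 to 4 and 0 to 3 in DC-like, 0 to 1, 0 to 1 and 0 to 0 in MC38-like and 0 to 0, 0 to 1 and 0 to 0 in mature DC-like cells. The count of genes whose response differed from that in macrophage-like cells ranged from 0 to 3 (DC-like), 0 to 2 (mature DC-like), 0 to 0 (monocyte-like) and 0 to 1 (MC38-like). The share of macrophage-like cells with *Cd86* differed from that after free R848 by −8.37 percentage points at 1000 UMIs (−9.11 to −7.40 with a tumor left out), −15.2 at 2000 UMIs and −26.0 without thinning, and for *Cd274* the difference was 10.7 (6.85 to 14.5), 17.3 and 21.6. In DC-like cells the difference for *Cd274* ranged from 18.3 to 24.9 points.

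The replicate numbers were not used as pairs in the main fits. Of 7 same-numbered pairs, 2 had a correlation of their deviations above 0.1 (−0.303 to 0.181). Deviations from the means of such small groups offset each other, so these correlations cannot show whether the tumors were paired. With the block *Cd86* in macrophage-like cells fell by 1.04 against free R848 (edgeR adjusted p = 0.041) and *Tnfsf9* by 1.75 against saline (edgeR adjusted p = 0.0914). Depth limits the monocyte-like class most, where the medium R848-BPD tumors held 21 and 11 cells, and *Tnfsf4* in macrophage-like cells.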

Other observations

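Outside the 4 classes, *Tnfsf4* was carried by NK-like cells at 83.4, 119.9 and 70.7 CPM after free R848, 136 and 137 CPM after medium R848-BPDs and 114, 131 and 116 CPM after saline, a range close to that of DC-like cells. *Pdcd1lg2* was at 36.2 to 94.2 CPM in NK-like cells, above its 1.97 to 4.66 CPM in macrophage-like cells, and was highest in the 2 medium R848-BPD tumors (64.0 and 94.2 CPM). T-like cells carried both genes too. *Tnfsf4* was at 39.6, 32.8 and 71.7 CPM there after free R848, 114 and 84.5 CPM with medium R848-BPDs and 32.4, 11.5 and 59.4 CPM after saline, so that both medium R848-BPD tumors lay above the other 6. *Pdcd1lg2* was at 47.9 and 63.3 CPM with medium R848-BPDs, overlapping with free R848 (21.9 to 55.4 CPM) and above saline (29.9 to 40.1 CPM). *Cd86* and *Cd80* were at 0 to 12.5 and 0 to 2.71 CPM in NK-like cells. Neutrophil-like cells, of which no saline tumor held at least 10, had 941, 349 and 774 CPM of *Cd274* after free R848 and 733 and 757 CPM after medium R848-BPDs. These values were read after the other classes had been seen and were not tested.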
